A study of Saccharomyces cerevisiae with 13 samples.

Results

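The nuclear genes of the yeast respiratory chain, the ATP synthase and the tricarboxylic acid (TCA) cycle were followed through exposure to TFM. They comprise 4 genes of complex II, 9 of complex III, 9 of complex IV, both cytochrome c genes, 14 genes of the ATP synthase, 3 genes that regulate it and 11 of the TCA cycle. The 52 genes were chosen by name from their place in these complexes, with earlier results of these data known. All 52 were among the 5449 genes measured, each by a single probe set. Had a gene several probe sets, the one with the highest mean over the 13 arrays was to be taken.

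Saccharomyces cerevisiae of the laboratory strain BY4741 was grown to saturation in a medium with glycerol and ethanol, which cannot be fermented. The cultures then received 0.05 mM TFM or 2% isopropanol for 1, 2 or 4 h, and RNA was hybridized to Affymetrix arrays. There were 2 arrays for each condition and time, apart from a lone array for isopropanol at 2 h, whose second RNA was of poor quality. A pair of time-zero arrays was taken just before treatment, although their labels name 2% isopropanol as the agent. BY4741 is a MATa strain with deletions in HIS3, LEU2, MET15 (called MET17 here) and URA3, and every group shares this background. The labels do not say whether the TFM cultures also held isopropanol. The RNA samples are called independent but not said to come from separate cultures, so p-values measure only the spread between these samples.

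TFM is a nitrophenol used against larval sea lampreys and is known to uncouple mitochondrial respiration. In respiring yeast, the TCA cycle and complex II feed electrons through coenzyme Q to complex III, cytochrome c carries them to complex IV, and the proton gradient that complexes III and IV build drives the ATP synthase. An uncoupler lets protons back across the inner membrane without passing through the synthase. Transcription of many of these nuclear genes depends on the Hap complex, whose Hap4 subunit is made in cells that respire.

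Replicate arrays correlated with a Pearson r between 0.9917 and 0.9984 across the 5449 genes. The strain check gave mean log2 values of 4.89 for URA3, 5.64 for LEU2 and 5.53 for MET17, all under the 5.91 of the brightest unspiked control, whereas HIS3 stood at 11.5. The 7 a-specific genes had means from 9.56 (ASG7) to 13.97 (MFA1); of the alpha-specific genes, MF(ALPHA)2 and MF(ALPHA)1 had 6.83 and 7.25, while STE3 had 9.11 and SAG1 11.9. The mean difference between 3′ and 5′ probe sets of 7 control transcripts, which widens as RNA is shortened, was 1.63 and 1.40 on the TFM arrays at 4 h and 1.15 and 1.13 on the isopropanol arrays of that time. At 2 h it was 1.18 and 1.49 with TFM and 1.14 with isopropanol, and on the 6 other arrays it lay between 1.19 and 1.42. The hybridization controls of replicate 1 of TFM at 4 h were brighter (12.005) than those of every other array (11.1 to 11.7). The arrays are normalized to one another, so every change below is relative to the other transcripts, and a change in total RNA per cell cannot be told apart from none.

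Most of these probe sets were bright and nearly flat through the whole experiment. Their mean log2 values over the 13 arrays had a median of 14.2, at the 96.2 percentile of all genes, while the highest value on any array was 15.2. The span from the lowest to the highest of the 7 group means had a median of 0.23 on the log2 scale over the 52 genes, against 0.52 over all genes, and 49 of the 52 lay below that all-gene median. SDH3, a membrane anchor of complex II, and ATP3, the gamma subunit of the synthase's rotor, had the narrowest spans, 0.08 each. The 3 genes at or above the all-gene median were RIP1 (0.55), CYC1 (1.21) and CYC7 (1.31). By complex, the median span was 0.14 in complex II, 0.17 in complex III, 0.18 in the TCA cycle, 0.23 in the ATP synthase, 0.23 among its regulators, 0.35 in complex IV and 1.26 for the cytochrome c genes.

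**Figure D1:**
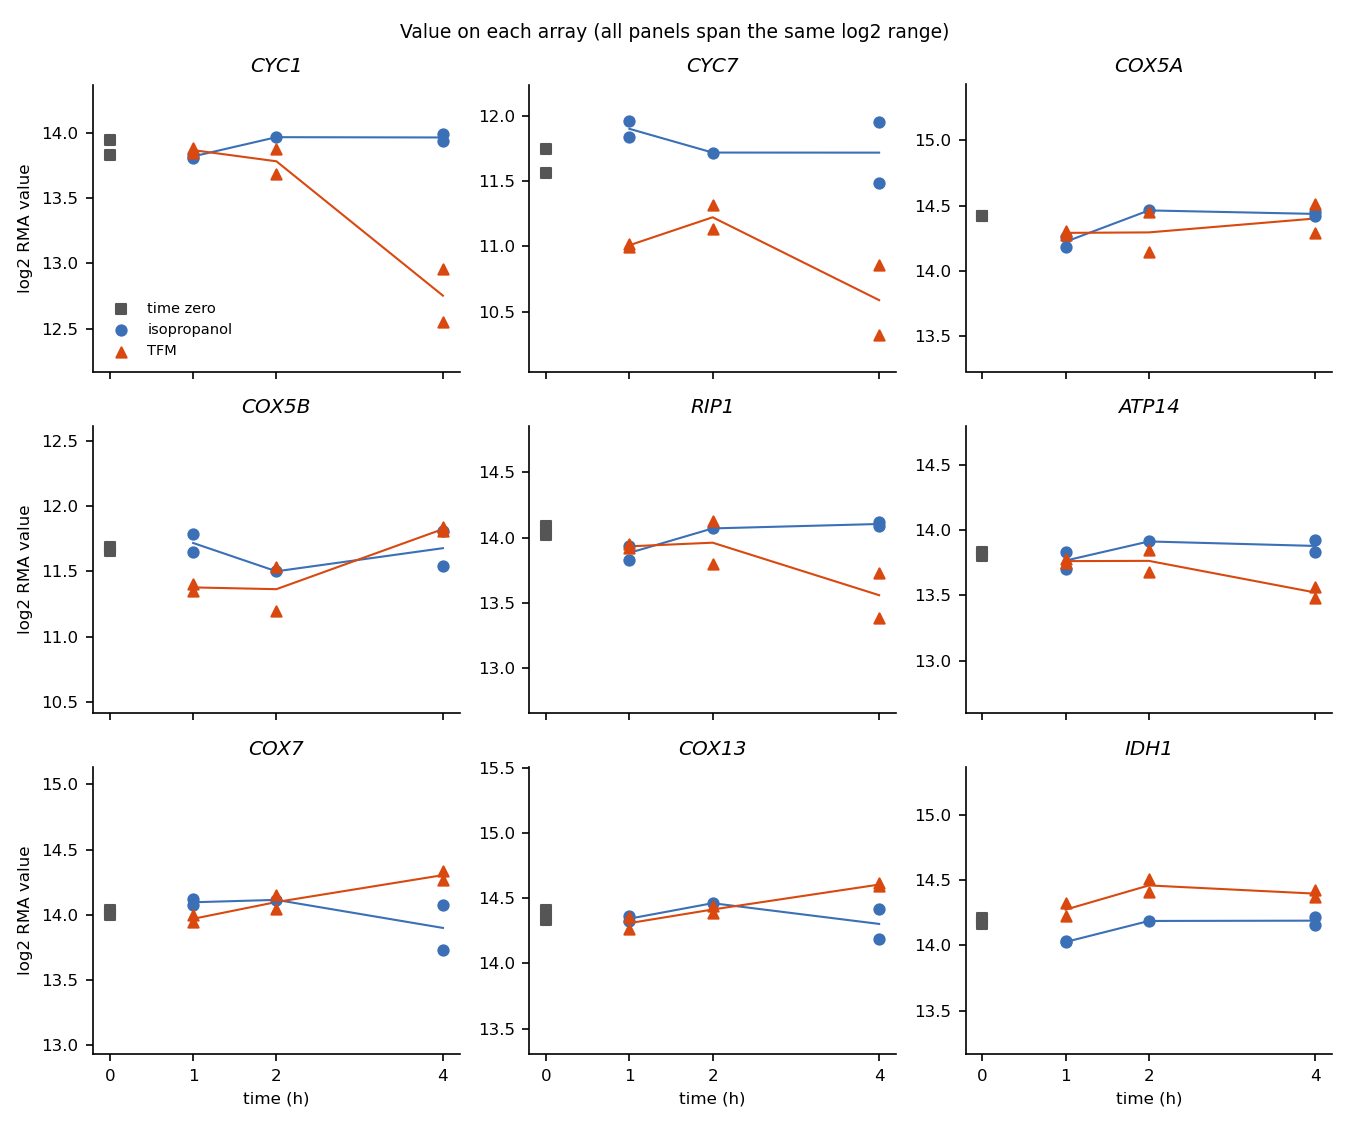
Log2 RMA values of selected members on each of the 13 arrays, by group and time, with points for single arrays and lines through group means. CYC1 lies between 13.81 and 13.99 on the isopropanol and time-zero arrays and at 12.55 and 12.96 on the TFM arrays at 4 h, whereas CYC7 is already lower with TFM at 1 h.

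The first comparison asks what TFM did against isopropanol at each time. At 1 h and at 2 h none of the 52 genes passed the test (limma, adjusted p at or under 0.05 over all genes), where 1.23% and 14.1% of all genes did. At an unadjusted p under 0.05 the counts were 5 genes at 1 h and 1 at 2 h. The same cut took in 963 and 1668 of all 5449 genes. The 95% interval of the difference lay within 1.5-fold either way for 49 genes at 1 h and for 51 at 2 h. The exceptions were COX5B, COX8 and CYC7 at 1 h and CYC7 at 2 h. TFM and isopropanol arrays did not overlap for 15 genes above and 25 below isopropanol at 1 h (56.5% of all genes in either direction), 11 and 28 at 2 h (79.5%), and 14 and 24 at 4 h (79.8%).

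At 4 h, 4 of the 52 genes were higher and 14 lower with TFM, while 64.9% of all genes passed the test (30.9% higher and 34% lower). The median absolute log2 difference was 0.13 over the 52 genes and 0.39 over all genes. Only CYC1 and CYC7 reached 2-fold, a size that 603 genes reached among all those called. The 34 uncalled members had differences between −0.25 and 0.17 with 95% intervals that stayed between −0.48 and 0.41, so that 1.5-fold changes lie outside the interval of each of them. The median difference of the 52 genes was −0.04 at 1 h, −0.05 at 2 h and −0.03 at 4 h, beside 0.01, 0.01 and −0.01 over all genes.

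The 4 h counts depended on single arrays and on the normalization. Fewer members were called without replicate 1 of TFM at 4 h, or without replicate 1 or 2 of isopropanol at 4 h. Such a fit leaves 1 array in a group, so lost calls there may reflect lost power. The members' median difference was −0.001, −0.03 and −0.07 in these fits, and that of all genes −0.01, −0.04 and 0.01. The counts were 14 higher and 6 lower after cyclic loess. They were 2 and 1 with the 3′ minus 5′ difference as a covariate. Of all genes, 66.3% were called after cyclic loess and 44.9% with this covariate. Cyclic loess ended the calls of QCR2, CYT1, COX6, ATP5, ATP16, ATP17, STF1 and KGD2, whose differences under it lay between −0.25 and −0.06.

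**Figure D2:**
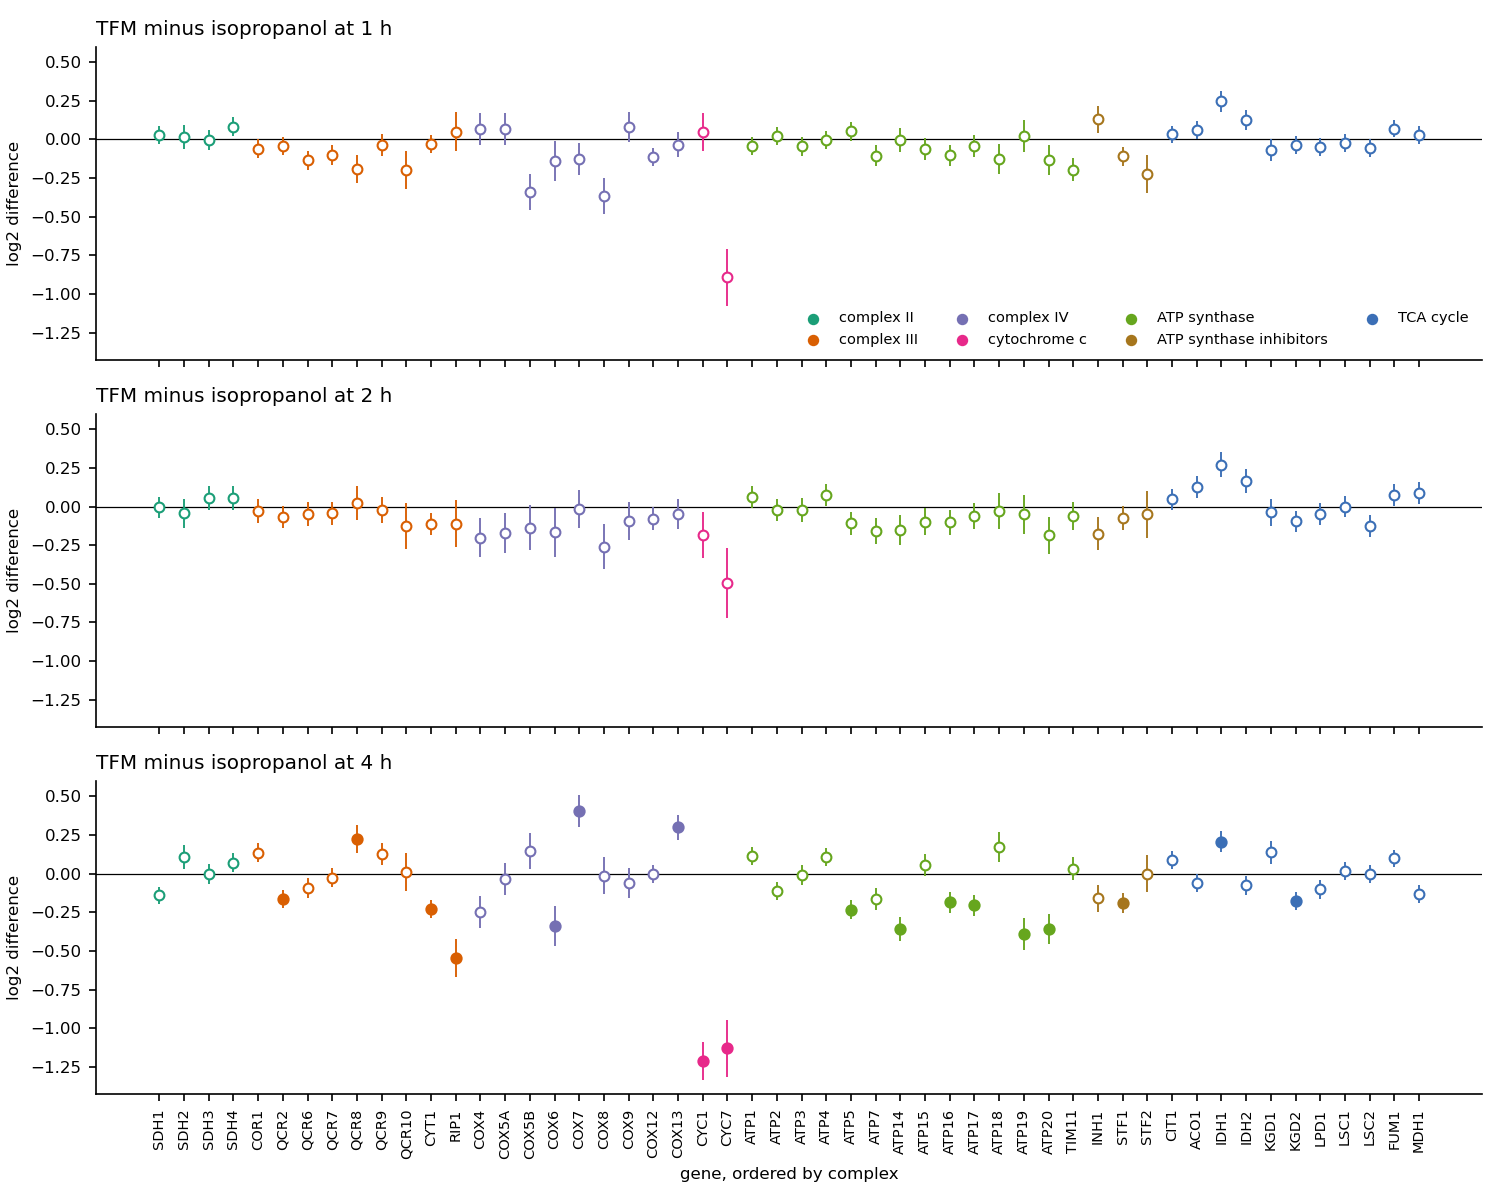
Log2 differences between TFM and isopropanol for all 52 members at 1, 2 and 4 h, grouped by complex, with bars of ± 1 standard error; filled points passed the test. Most points lie close to 0 at each time, and CYC1 (−1.21) and CYC7 (−1.13) at 4 h stand furthest below it.

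The share called at 4 h was read beside the brightness of the probe sets, a background chosen after the values were seen. Among genes with a mean log2 value of at least 14, 8 of 38 members were called (21.1%) and 172 of 293 other genes (58.7%), with median absolute log2 differences of 0.10 and 0.23. Between 13 and 14, 9 of 12 members were called (75%) and 463 of 644 other genes (71.9%), with median absolute differences of 0.28 and 0.39. The members' share was thus below that of other genes at the brightest level and close to it between 13 and 14. Whether array signals this near their upper end understate changes was not tested.

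**Figure D3:**
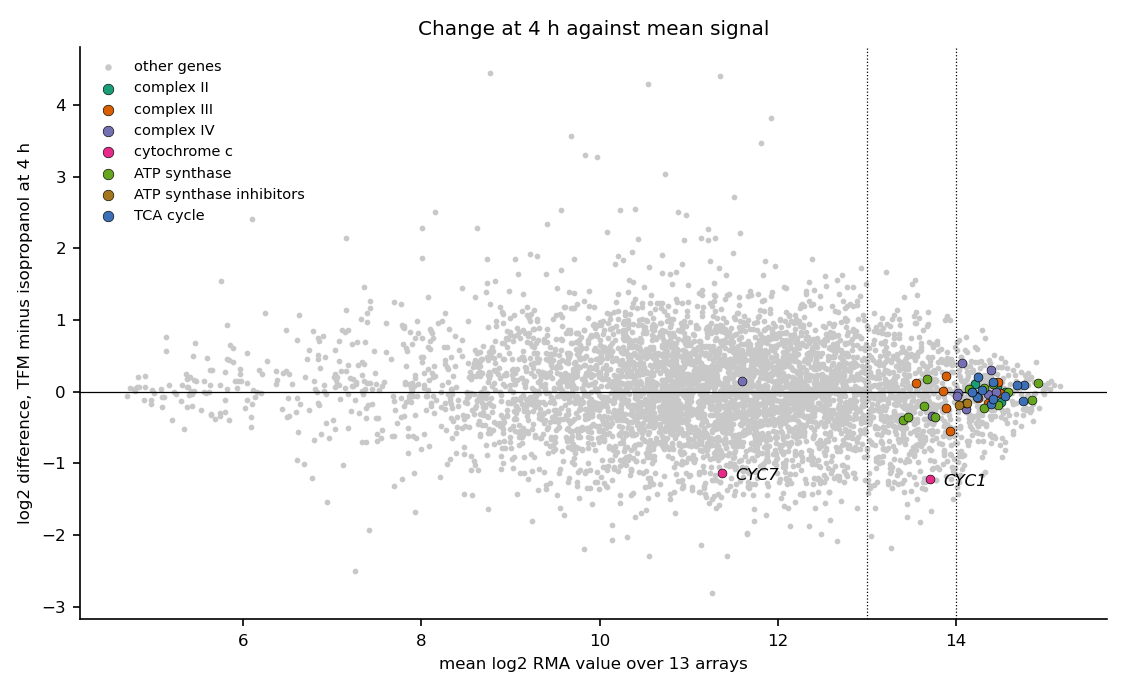
Log2 difference between TFM and isopropanol at 4 h against the mean log2 value over 13 arrays, for all genes (grey) and for the 52 members (coloured). The members crowd at the right edge, 38 of them at 14 or above, where their differences run from −0.25 to 0.40.

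In the TCA cycle, 1 of 11 genes rose and 1 fell at 4 h, where 64.9% of all genes were called; after cyclic loess the counts were 4 and 0, with CIT1, IDH1, KGD1 and FUM1 higher. IDH1, a subunit of the NAD-dependent isocitrate dehydrogenase, read 14.21 and 14.16 at time zero, 14.03 and 14.02 with isopropanol at 1 h, 14.19 at 2 h, and 14.16 and 14.22 at 4 h; with TFM it read 14.22 and 14.32 after 1 h, 14.51 and 14.41 after 2 h, then 14.42 and 14.37 after 4 h. Its TFM arrays lay above the isopropanol arrays of the same time at all 3 times. The difference was 0.25 ± 0.067 (SE) at 1 h (adjusted p = 0.105), 0.27 ± 0.083 at 2 h (adjusted p = 0.0562) and 0.21 ± 0.067 at 4 h (adjusted p = 0.0214), the last a 1.15-fold rise. The 4 h call was lost without replicate 1 of TFM (0.18, adjusted p = 0.088) and without replicate 1 of isopropanol (0.18, adjusted p = 0.102).

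KGD2, the succinyl-transferring subunit of alpha-ketoglutarate dehydrogenase, read 14.25 and 14.29 with TFM at 4 h and 14.45 and 14.44 with isopropanol. Both TFM values were below every other array of the series, and the fall was 0.17 on the log2 scale (SE 0.057, adjusted p = 0.0222). It was lost without any of replicate 1 of TFM and replicates 1 and 2 of isopropanol at 4 h (adjusted p = 0.0788, 0.0667 and 0.0653), and after cyclic loess it was −0.064 (adjusted p = 0.324). The other 9 enzymes, among them the citrate synthase CIT1 (0.09), the aconitase ACO1 (−0.06), the fumarase FUM1 (0.10) and the malate dehydrogenase MDH1 (−0.13), were not called.

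Complex II, the succinate dehydrogenase, had no called gene among its 4 at 4 h, where 64.9% of all genes were called. However, SDH2 and SDH4 were called higher after cyclic loess and SDH2 with the 3′ minus 5′ covariate. The differences at 4 h were −0.14 for the flavoprotein SDH1 (adjusted p = 0.0502), 0.11 for the iron-sulfur subunit SDH2 and 0.00 and 0.07 for the anchors SDH3 and SDH4. The widest of the 4 intervals at 4 h, that of SDH2, ran from −0.06 to 0.28.

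In complex III, 1 gene rose and 3 fell of 9 at 4 h (3 and 1 after cyclic loess). Of all genes, 30.9% rose and 34% fell. RIP1, the Rieske iron-sulfur protein that takes electrons from the reduced coenzyme Q, read 14.02 and 14.09 at time zero, between 13.83 and 14.12 on the 5 isopropanol arrays, 13.95 and 13.92 with TFM after 1 h, 14.13 and 13.79 after 2 h, then 13.39 and 13.73 after 4 h. The 4 h TFM arrays were the lowest 2 of the 13, but replicate 1 was well below replicate 2 (SD 0.24). RIP1 was lower by 0.55 ± 0.13 (SE) on the log2 scale at 4 h, 1.46-fold (adjusted p = 0.00367).

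RIP1 is also among the control transcripts with separate 3′, middle and 5′ probe sets, and these fell by 0.55, 0.60 and 0.88 at 4 h. The fall was largest at the 5′ end. With the 3′ minus 5′ difference as a covariate, itself partly measured on RIP1, the difference was −0.10 (adjusted p = 0.461).

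CYT1, the cytochrome c1 subunit, read 13.76 and 13.72 with TFM at 4 h and 13.98 and 13.96 with isopropanol, a difference of −0.23 (SE 0.059, adjusted p = 0.00627). QCR2, a core subunit, read 14.24 and 14.29 against 14.44 and 14.42, a difference of −0.17 (SE 0.058, adjusted p = 0.0299). In both genes the TFM arrays lay below both isopropanol arrays, and both calls were lost after cyclic loess (−0.14 and −0.06). The QCR2 call was also lost without replicate 1 of TFM at 4 h (adjusted p = 0.106) and without either isopropanol array of 4 h (adjusted p = 0.096 and 0.0701).

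QCR8, a small subunit near the quinone sites, read 13.97 and 14.10 with TFM at 4 h and 13.93 and 13.69 with isopropanol. The nearest arrays of the groups almost touched, and the rise of 0.22 (SE 0.089) barely passed the test (adjusted p = 0.0493). Without replicate 2 of isopropanol it was 0.10 (adjusted p = 0.349), and without replicate 2 of TFM 0.16 (adjusted p = 0.222). The other 5 genes of complex III, COR1, QCR6, QCR7, QCR9 and QCR10, lay between −0.09 and 0.14.

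Cytochrome c showed the largest changes of these genes. CYC1 encodes the main isoform (iso-1) and CYC7 a minor one (iso-2). CYC1 read 13.95 and 13.83 at time zero; with isopropanol it read 13.83 and 13.81 at 1 h, 13.97 at 2 h, and 13.99 and 13.94 at 4 h; with TFM it read 13.85 and 13.89 after 1 h, 13.88 and 13.69 after 2 h, then 12.55 and 12.96 after 4 h. Of the 13 arrays, only the 4 h TFM arrays were low. The difference was 0.05 ± 0.12 (SE) at 1 h, −0.18 ± 0.15 at 2 h (adjusted p = 0.442) and −1.21 ± 0.12 at 4 h, 2.32-fold lower (adjusted p = 2.09e-05). The call at 4 h held in each of the 27 alternatives, with differences from −1.42 to −0.86.

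CYC7 read 11.75 and 11.56 at time zero; with isopropanol it read 11.96 and 11.84 at 1 h, 11.72 at 2 h, and 11.95 and 11.49 at 4 h; with TFM it read 10.99 and 11.02 after 1 h, 11.32 and 11.13 after 2 h, then 10.32 and 10.86 after 4 h. Every TFM array was below every isopropanol and time-zero array. The difference was −0.89 ± 0.18 (SE) at 1 h, just outside the threshold (adjusted p = 0.0567), −0.50 ± 0.23 at 2 h (adjusted p = 0.171) and −1.13 ± 0.18 at 4 h, 2.19-fold lower (adjusted p = 0.000444). At 1 h it was the largest difference of the 52 genes, and it passed in 12 of 27 alternatives; over all 27, adjusted p ran from 0.0136 to 0.313. At 4 h the call was lost with the 3′ minus 5′ difference as a covariate (−0.75, adjusted p = 0.0534).

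In complex IV, cytochrome c oxidase, 2 genes rose and 1 fell of 9, where 30.9% of all genes rose and 34% fell. COX7, the nuclear subunit VII, read 14.27 and 14.34 with TFM at 4 h and 14.07 and 13.73 with isopropanol, and between 13.94 and 14.15 on the other 9 arrays. The TFM arrays at 4 h were the highest 2 of the 13. The rise was 0.40 ± 0.10 (SE), 1.32-fold (adjusted p = 0.00602), and it was 0.23 (adjusted p = 0.0369) without replicate 2 of isopropanol at 4 h.

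COX13, the nuclear subunit VIa, read 14.59 and 14.62 with TFM at 4 h and 14.41 and 14.19 with isopropanol. These TFM arrays were again the highest of the 13. The rise was 0.30 (SE 0.081, adjusted p = 0.0086), but it did not pass without replicate 2 of isopropanol (0.19, adjusted p = 0.0701).

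COX6, the nuclear subunit VI, read 13.32 and 13.72 with TFM at 4 h and 13.90 and 13.81 with isopropanol. Replicate 1 was far below replicate 2. The fall was 0.34 on the log2 scale (SE 0.13, adjusted p = 0.0413). Without replicate 1 of TFM it was −0.14 (adjusted p = 0.329), without replicate 1 or 2 of isopropanol at 4 h it did not pass (adjusted p = 0.151 and 0.074), and with the 3′ minus 5′ covariate it turned to 0.07 (adjusted p = 0.703).

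COX5A and COX5B encode alternative forms of subunit V, of which COX5B is known as the form made when oxygen is short. COX5A read 14.42 and 14.42 at time zero, 14.29 and 14.51 with TFM at 4 h and 14.42 and 14.45 with isopropanol, which overlap (−0.04 ± 0.11, adjusted p = 0.785). With the 3′ minus 5′ covariate COX5A was 0.33 (adjusted p = 0.0153). COX5B read 11.66 and 11.69 at time zero, 11.40 and 11.35 with TFM at 1 h against 11.65 and 11.79 with isopropanol, and 11.81 and 11.84 with TFM at 4 h against 11.81 and 11.54. It was thus below isopropanol at 1 h (−0.34 ± 0.12, adjusted p = 0.187) and not below it at 4 h (0.15 ± 0.12, adjusted p = 0.301). The other 4 genes, COX4, COX8, COX9 and COX12, lay between −0.25 and 0.00 at 4 h.

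In the ATP synthase, 6 of 14 genes fell at 4 h and none rose, where 34% of all genes fell and 30.9% rose. After cyclic loess 3 rose (ATP1, ATP4 and ATP18) and 3 fell (ATP14, ATP19 and ATP20), so the direction of this group is not settled. The 5 subunits of the catalytic head and central stalk were ATP1 (0.12), ATP2 (−0.11), ATP3 (−0.01), ATP15 (0.05) and ATP16 (−0.19, adjusted p = 0.0355), of which ATP16, the delta subunit, was called. ATP16 read 14.27 and 14.39 with TFM at 4 h and 14.55 and 14.48 with isopropanol. The groups did not overlap, and the call was lost without replicate 1 of TFM (adjusted p = 0.181) or either isopropanol array of 4 h (adjusted p = 0.152 and 0.0502). Arrays of other times also decided weak calls through the shared spread: ATP16, COX6 and QCR8 did not pass without either time-zero array or either TFM array of 1 h, and QCR2 did not without either time-zero array.

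The other 5 called genes belong to the peripheral stalk and the membrane sector. ATP14, subunit h of the stalk, read 13.48 and 13.57 with TFM at 4 h and 13.92 and 13.83 with isopropanol. It was below every other array and lower by 0.36 (SE 0.080, adjusted p = 0.00298). ATP5, the stalk protein that holds the head, read 14.08 and 14.18 against 14.37 and 14.36, a difference of −0.23 (SE 0.062, adjusted p = 0.00814) that was −0.12 after cyclic loess (adjusted p = 0.0823). ATP19, subunit k, read 13.02 and 13.26 against 13.63 and 13.43, a difference of −0.39 (SE 0.10, adjusted p = 0.00792). For both genes the TFM arrays at 4 h were the lowest of the 13. Both calls were lost without replicate 1 of TFM at 4 h (adjusted p = 0.0503 for ATP5 and 0.0661 for ATP19).

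ATP20, subunit g, which helps synthase dimers form, read 13.14 and 13.22 with TFM at 4 h against 13.69 and 13.39, a difference of −0.36 (SE 0.097, adjusted p = 0.00873). ATP17, subunit f, read 13.53 and 13.48 against 13.73 and 13.68, a difference of −0.21 (SE 0.070, adjusted p = 0.0261). The groups did not overlap in either gene. ATP20 and ATP17 did not pass without replicate 1 of isopropanol at 4 h (−0.21 and −0.18, adjusted p = 0.0656 and 0.111), nor did ATP19 (adjusted p = 0.0631). ATP17 was also lost without replicate 2 of TFM (adjusted p = 0.0977). TIM11, subunit e and the partner of ATP20 in dimers, was not called (0.03), nor were ATP4 (0.11), ATP7 (−0.16) and ATP18 (0.17).

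INH1 and STF1 encode inhibitors that keep the synthase from running backwards as an ATPase, and STF2 encodes a factor first described as stabilizing that inhibition. INH1 read 13.90 and 14.10 with TFM at 4 h against 14.14 and 14.18 with isopropanol (−0.16 ± 0.089, adjusted p = 0.14). STF1 read 13.84 and 13.88 against 14.10 and 14.0005, a fall of 0.19 on the log2 scale (SE 0.063, adjusted p = 0.023), lost without replicate 1 of TFM (adjusted p = 0.0877) or of isopropanol (adjusted p = 0.133). STF2 read 14.09 and 14.16, between the 14.33 and 13.92 of isopropanol (0.00 ± 0.12, adjusted p = 0.995). Of the 3, 1 was called lower and none higher with TFM at 4 h, where 34% and 30.9% of all genes were. At 1 h their differences were 0.13, −0.11 and −0.22, none of them called, with adjusted p of 0.475, 0.389 and 0.366.

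The second comparison asks whether the effect of TFM differed between times. The difference of the TFM effect at 4 h and at 1 h passed the test for 9 of the 52 genes, 4 upward and 5 downward, where 49.3% of all genes did (22.9% upward and 26.4% downward). CYC1 moved most (−1.26 ± 0.17, adjusted p = 0.000373), followed by RIP1 (−0.60) and, with ATP19, ATP14 and ATP5, all 3 from the ATP synthase, between −0.41 and −0.28. The upward genes were COX7 (0.53), COX5B (0.49), QCR8 (0.41) and COX13 (0.34), of which COX5B was called at neither time alone.

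Between 4 h and 2 h, CYC1 alone of the 52 genes was called (−1.03 ± 0.19, adjusted p = 0.00347), where 35.1% of all genes did (14.9% upward and 20.2% downward). At 2 h a lone isopropanol array carried the control, and the fit assumes that it varies like the other groups. For CYC7 neither difference between times was called. The CYC1 differences between times held in each of the 24 and 23 alternatives in which they could be computed.

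The third comparison asks whether these genes differed between the isopropanol arrays and time zero. Isopropanol and elapsed time cannot be told apart in it, and the time-zero labels themselves name 2% isopropanol. No member was called at 1, 2 or 4 h, nor was any gene (0% of all genes). Same-numbered arrays of time zero and isopropanol deviated together (r = 0.43, 0.60 and 0.27 between time zero and 1 h, time zero and 4 h, and 1 h and 4 h). In a fit of these 7 arrays alone with the replicate number as a block, chosen after seeing the data, 44 genes were higher and 39 lower at 1 h and none at 2 h or 4 h, again with no member among them. At an unadjusted p under 0.05 in limma, 2, 0 and 0 members stood apart, beside 367, 111 and 67 of all genes. The 2 members at 1 h were INH1 (−0.20) and IDH1 (−0.16). All 52 intervals lay within 1.5-fold at 2 h and at 4 h, and 51 did at 1 h, the exception being CYC7.

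The genes that regulate or assemble these complexes are described beside them, in lists chosen with results of these data known. Of 7 genes of the Hap complex and of haem or oxygen response, 5 rose and none fell at 4 h, where 30.9% of all genes rose and 34% fell. Without replicate 1 of TFM at 4 h the count was 2, HAP4 and ROX1, and without either isopropanol array of 4 h it was 3. HAP4, the limiting activator subunit of the Hap complex, read 13.83 and 13.72 at time zero, and between 13.76 and 13.93 on the 5 isopropanol arrays. With TFM it read 13.86 and 13.99 after 1 h, 14.11 and 14.13 after 2 h, then 14.39 and 14.50 after 4 h. Its TFM arrays at 2 h and at 4 h were above every array without TFM. The difference was −0.01 at 1 h, 0.29 at 2 h (adjusted p = 0.0621) and 0.63 ± 0.075 (SE) at 4 h (adjusted p = 6.12e-05), and the 4 h call held in each of the 27 alternatives. ROX1, the repressor of hypoxic genes, rose by 0.52 (adjusted p = 0.0023). HAP3, a DNA-binding subunit of the Hap complex, was higher by 0.22 (adjusted p = 0.046) and MOT3, a repressor of hypoxic genes, by 0.34 (adjusted p = 0.0415). Without replicate 1 of TFM these were 0.13 (adjusted p = 0.269) and 0.14 (adjusted p = 0.331).

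HAP1, the haem-responsive activator of CYC1 and CYC7, which in this strain's lineage carries a transposon insertion known to weaken it, rose by 0.27 (adjusted p = 0.0319), a call lost without replicate 1 of TFM (adjusted p = 0.201) and without replicate 2 of isopropanol at 4 h (adjusted p = 0.147) and turned to −0.03 with the 3′ minus 5′ covariate. The other DNA-binding subunits HAP2 (−0.06) and HAP5 (0.08) were not called. HAP4 was thus higher and CYC1 lower on the same 4 h arrays.

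Of 8 genes of haem synthesis, 5 were lower and 1 higher at 4 h, beside the 34% lower and 30.9% higher of all genes. HEM13, the coproporphyrinogen oxidase, fell by 1.43 on the log2 scale (adjusted p = 1.16e-05), the uroporphyrinogen synthase HEM4 by 1.28 and the ferrochelatase HEM15 by 1.05, while HEM1, which catalyses the first step, rose by 0.55 (adjusted p = 0.00032). HEM13 was already lower at 2 h (−0.85, adjusted p = 0.0103). Of 10 genes of coenzyme Q synthesis, 4 fell and 1 rose, also beside 64.9% called over all genes, with COQ5 at −1.40, COQ8 at −1.37, COQ3 at −0.76 and COQ2 at 0.42. The COQ2 call was lost in 6 of 27 alternatives, with differences from 0.18 to 0.66 over all 27. Those of COQ5, COQ8 and COQ3 held in all 27.

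Of 34 assembly factors of the respiratory complexes, 8 were higher and 10 lower at 4 h (64.9% of all genes were called), with a median difference of −0.01. The haem lyase for cytochrome c, CYC3, rose by 0.92 (adjusted p = 1.01e-05), COX23, needed to assemble complex IV, rose by 0.88, and CBP4, which helps assemble complex III, by 0.53. SDH5, which attaches the flavin to SDH1, fell by 0.82, and the complex IV factors SHY1 and COX18 fell by 0.78 and 0.76. Of 7 assembly factors of the ATP synthase, 4 fell and none rose, where 34% of all genes fell, led by ATP12, a chaperone of the catalytic head, at −1.43 (adjusted p = 1.39e-06).

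Of 13 listed isoenzymes and paralogs of the TCA genes and complex II, 10 were measured; 6 of them were higher and 1 lower at 4 h, beside 64.9% of all genes called in either direction. CIT3, a minor mitochondrial citrate synthase, rose at 1 h by 0.42 (adjusted p = 0.0492), at 2 h by 0.71 (adjusted p = 0.00355) and at 4 h by 1.57 (adjusted p = 8.84e-07). The 1 h call barely passed and was lost in 15 of 27 alternatives, with differences from 0.35 to 0.48 over all 27. The calls at 2 h and 4 h held in each of 25 and 27 alternatives. CIT3 read 13.19 and 13.19 at time zero and 14.69 and 14.74 with TFM at 4 h. The NADP-dependent isocitrate dehydrogenases IDP3, of peroxisomes, and IDP2, of the cytosol, rose by 1.21 and 0.49 at 4 h, while KGD4, a subunit of alpha-ketoglutarate dehydrogenase, fell by 0.39. Of 6 genes of the pyruvate dehydrogenase complex and its regulators, 2 fell (34% of all genes did), PDX1, which holds a subunit in the complex, by 0.43 and PTC5, a phosphatase that acts on it, by 0.42. None of the 7 mitochondrially encoded subunits was measured here.

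**Figure D4:**
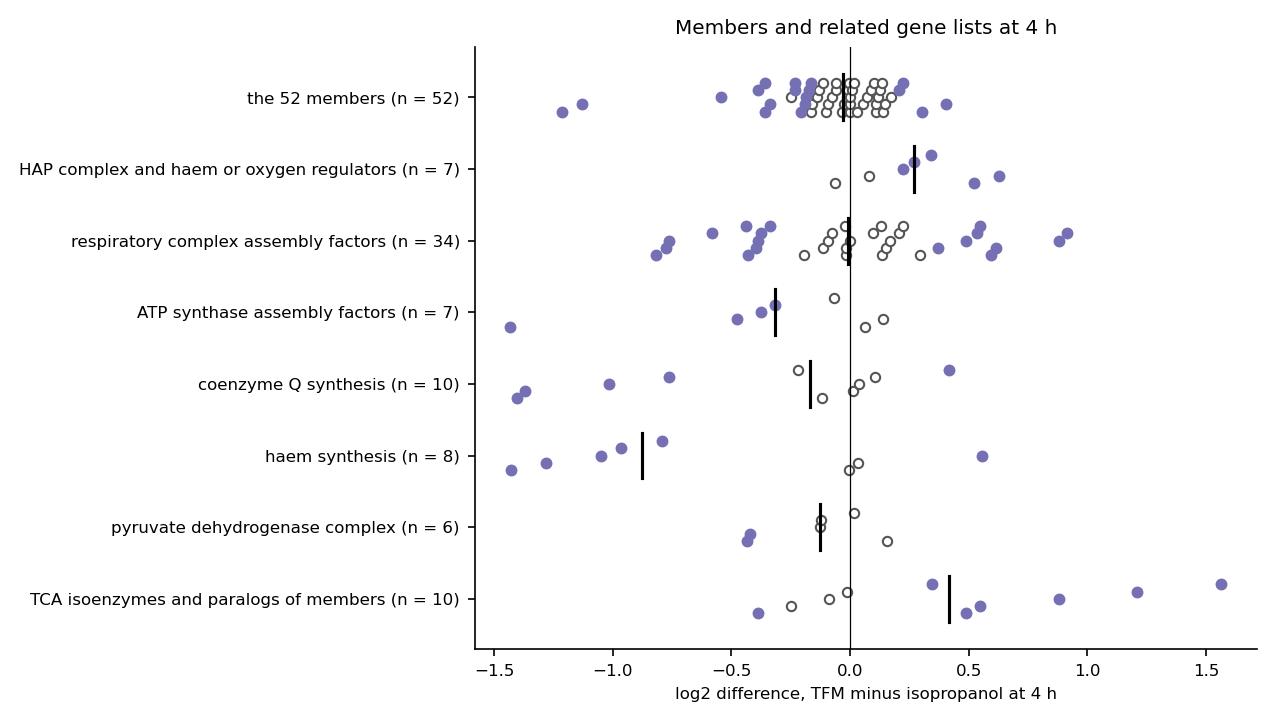
Log2 differences between TFM and isopropanol at 4 h for the 52 members and for each related list, one point per gene, with filled points for genes that passed the test and a vertical bar at each median. The members cluster around 0 outside cytochrome c, and the lists of haem synthesis, coenzyme Q synthesis and assembly factors reach from −1.43 to 0.92.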

How the data were processed

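The authors deposited log2 expression values of 5900 probe sets on 13 arrays, made by RMA per the submitters' processing notes; its version, background and summary settings are not given in the sources used here. RMA includes quantile normalization, which leaves differences relative. Of the probe sets, 137 are controls, 265 others had no gene and 5498 had 1 gene symbol in the platform annotation, updated for 12 symbols through RefSeq and giving 5449 genes; the 47 genes with several probe sets kept the one with the highest mean. No coordinates are given because the files name no genome build.

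Groups were taken from the labels. A mean per group was fitted over all 13 arrays with limma 3.58.1 in R 4.3.3 (lmFit, eBayes, 6 residual and 3.52 prior degrees of freedom), two-sided, with Benjamini-Hochberg adjustment over all genes and a threshold of 0.05. "Called" means past that threshold; errors are limma's standard errors. Precision is limited by how few arrays each group holds. The fit was tested on simulated data.

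The members and lists were chosen with earlier results of these data known. In the text, values on every array are given for IDH1, CYC1 and CYC7. For the other called members, COX5A, COX5B and the inhibitors, values are given mainly for the 4 h arrays, in places by range. From each related list, genes with the smallest adjusted p in each direction at 4 h (up to 3) were eligible, with HAP4, HAP1 and ROX1. HEM13 at 2 h, CIT3 at 1 and 2 h, HAP2, HAP3, HAP5 and MOT3 were added after their values were seen. Alternatives covered normalization, variance model, dim genes, probe set choice, control group, covariates, threshold, replicate block and each array left out.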

Additional observations from a re-analysis of the deposited data

Results flagged for a closer look

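Genes appear here because their TFM effect at 4 h differed from that at an earlier time by a test of the difference itself (limma, adjusted over all genes). Against 1 h, CYC1 (−1.26), RIP1 (−0.60), ATP19 (−0.41), ATP14 (−0.35) and ATP5 (−0.28) differed downward, and COX7 (0.53), COX5B (0.49), QCR8 (0.41) and COX13 (0.34) upward. Against 2 h, CYC1 differed (−1.03). CYC1 passed in each alternative computed, 24 against 1 h and 23 against 2 h; COX7 passed in 22 of 24, RIP1 and QCR8 in 17, ATP14 in 16, ATP5 in 15, COX5B and COX13 in 12 and ATP19 in 10. No group has 4 or more arrays, so no array was tested as standing apart from its group.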

How the results depend on the processing

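At 1 h the count of higher members was 0, and 1 with a trended robust variance; the count of lower members was 0, and 1 (CYC7) after cyclic loess, quantile normalization, a trended robust variance, without the dimmest 25% of genes, with all 5 isopropanol arrays as control, in a fit of only the 2 groups, with the 3′ minus 5′ covariate and without the 2 arrays (TFM at 4 h replicate 1 and at 2 h replicate 2, an alternative chosen after seeing the data), and 0 to 1 with single arrays left out. At 2 h the count higher was 0, and 1 after cyclic loess, quantile normalization, trended variance, without dim genes and with time zero as control, and 3 with all isopropanol arrays as control, where 2 were lower.

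At 4 h (4 higher, 14 lower), the counts were 14 and 6 after cyclic loess, 10 and 20 with trended variance, 1 and 5 in the fit of 2 groups, 2 and 1 with the 3′ minus 5′ covariate, 3 and 9 with the hybridization covariate, 2 and 8 at a threshold of 0.01, 2 and 7 without the 2 arrays, and 2 to 4 and 6 to 16 with single arrays left out. The share of all genes called was 66.3% after cyclic loess, 66.3% with trended variance and 54.9% in the fit of 2 groups. It was 44.9% with the 3′ minus 5′ covariate, 60.4% with the hybridization covariate and 52.4% at a threshold of 0.01. Cyclic loess kept 10 of the 18 calls and moved the members' median to 0.08. The balance of higher and lower is not settled. The covariate kept CYC1 alone of the 18 and turned COX5A to 0.33, COX6 to 0.070 and HAP1 to −0.033. Of the 17 calls it ended, several kept their size (ATP20 −0.32, CYT1 −0.22, ATP17 −0.20, STF1 −0.17, COX13 0.34, QCR8 0.27 and IDH1 0.24) with a higher adjusted p. The cause was not tested.

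For the effect at 4 h minus 1 h (4 up, 5 down), the counts were 11 and 3 after cyclic loess, 9 and 13 with trended variance, 0 and 1 with the 3′ minus 5′ covariate, 2 and 1 with the hybridization covariate, 0 and 1 at 0.01, 3 down without the 2 arrays, and 1 to 4 and 1 to 8 with single arrays left out. At 4 h minus 2 h (0 up, 1 down), they were 2 up after cyclic loess, 2 and 4 with trended variance, 1 up without dim genes, 1 up with the 3′ minus 5′ covariate, 2 down without the 2 arrays, and 0 to 2 and 1 to 4 with single arrays left out.

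Same-numbered TFM and isopropanol arrays did not deviate together (r = −0.23 at 1 h and −0.09 at 4 h). That alone does not settle whether the numbers pair TFM with control arrays. With the replicate block the 4 h counts were 3 and 13, without QCR8 and COX6, where 63.6% of all genes were called. The 2 h effect has no value without its isopropanol array. The promoter-window alternative was not run. Where an alternative above is given without the share of all genes called, its counts cannot tell a change among the members from one over all genes. In the main fit that share was 1.23% at 1 h, 14.1% at 2 h, 49.3% for 4 h minus 1 h and 35.1% for 4 h minus 2 h. With 1 or 2 arrays a group, small changes of bright transcripts rest on few values.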
